A study of Mus musculus with 23 samples.

Results

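The brains compared here came from mice that were heterozygous (HT) for the Grin2b C456Y mutation or wild-type (WT), and the question was how the genotypes differ when both treatments are pooled. All 23 of the 23 RNA-seq libraries entered: 12 HT libraries (6 from DCS-treated and 6 from vehicle-treated mice) and 11 WT libraries (5 DCS and 6 vehicle). The labels give male C57BL/6J mice at postnatal day 17 and whole-tissue "Brain", with no region, and name neither the dose of DCS nor the time between treatment and sampling. DCS commonly stands for D-cycloserine, a partial agonist at the co-agonist site of the NMDA receptor, although only the abbreviation is given. The sample descriptions mark the allele as a knock-in, so a HT mouse keeps 1 unaltered copy of Grin2b in every cell. Reads of the mutated and the unmutated copy are summed in the table, which therefore cannot tell them apart. The table lists 18848 genes, and the 17256 whose mean reached 10 were each fitted with a genotype term and a treatment term. The labels do not say that every library is a different mouse, so the p-values measure the spread between these libraries, which may be partly technical.

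NMDA receptors are glutamate-gated ion channels that open when glutamate and a co-agonist are bound and the membrane is depolarised, and they let calcium into the postsynaptic cell. They are built from GluN1 subunits, encoded by Grin1, together with GluN2 or GluN3 subunits. GluN2B, the product of Grin2b, predominates in the young forebrain, binds glutamate, and anchors the calcium-dependent kinase CaMKII at the synapse. At the age studied here cortical and striatal circuits are still maturing, and myelination is under way.

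Values are normalised read counts, which summed to between 32.3 M and 33.5 M in each library. From the step between low values, the depth before scaling was estimated at 25.65 M to 37.52 M reads. Y-linked genes were read in every library, with summed levels of 4347 to 5202 in HT and 4121 to 5147 in WT, and the mice are labelled male. Some libraries stood apart from their groups. On the component that carried 10.1% of the variance left after group means were removed, replicate 2 of WT DCS and replicate 2 of WT vehicle had scores of -27.6 and -29.4, against -14.3 to 12.4 for the other 21 libraries. Replicates 5 and 6 of HT DCS had the lowest levels of the Hox genes that mark the hindbrain, and HT vehicle replicate 6 was the lowest of its group for several neuronal genes. Values without these libraries stand beside the results they moved most.

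No gene passed the genotype test across all genes. At an adjusted p of 0.05, limma called 0 of 17256 genes (0%) higher and 0 lower in HT, and the smallest adjusted p was 0.0965. At an unadjusted p under 0.05 there were 1230 genes (7.13%), 555 higher (3.22%) and 675 lower (3.91%) in HT. Differences were small: the median absolute log2 difference over all genes was 0.039, against a median standard error of 0.049, and 50.6% of genes had a lower mean in HT. The 4 genes with the smallest p were Syt2, Hpca, Adora2a and Vamp1, each with a lower mean in HT. In what follows a gene at an unadjusted p under 0.05 is counted as such and is never a call.

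Syt2, which encodes synaptotagmin-2, the fast calcium sensor for transmitter release at many hindbrain, cerebellar and inhibitory synapses, had the smallest p. Its lowest, median and highest normalised read counts were 3922, 4626 and 5296 over the 12 HT libraries, against 5199, 5671 and 5895 over the 11 WT libraries. Every HT library lay under the WT mean, which in all such counts is the mean log2 level of the WT libraries of the same treatment. The ranges overlapped only between the highest HT and the lowest WT libraries. Under DCS the mean was 4448 ± 422 in HT (SD, n = 6) and 5599 ± 203 in WT (n = 5), and under vehicle it was 4891 ± 549 in HT (n = 6) and 5600.1 ± 284 in WT (n = 6). The pooled log2 difference was -0.27 ± 0.05 (SE), with a 95% interval of -0.36 to -0.17 (limma, adjusted p = 0.0965). After quantile normalisation, limma put Syt2 and Hpca past the threshold (adjusted p = 0.0322 for each), as it did with replicate numbers 1 to 3 against 4 to 6 as a covariate (adjusted p = 0.0349 for each).

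Vamp1, which encodes a synaptobrevin, the SNARE protein of the vesicle membrane, used at many brainstem and spinal terminals, had 6855 ± 524 in HT libraries and 7738 ± 320.3 in WT libraries (SD, n = 12 and 11). Its log2 difference was -0.18 ± 0.04 (SE) (limma, adjusted p = 0.219), close to the same under DCS (-0.19) and vehicle (-0.17). All 12 HT libraries lay under the WT mean. HT DCS replicate 6 was the lowest at 5462, and the highest HT library at 7329 overlapped the lowest WT libraries. Cplx1, for complexin-1, which clamps and speeds vesicle fusion, had a range of 17825 to 21011 in HT and 20572 to 23052 in WT and a log2 difference of -0.08 (limma, adjusted p = 0.539).

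The release machinery as a whole did not share this direction. Of 28 measured genes of the synaptic vesicle and release list, 13 had a higher and 15 a lower mean in HT, with a median log2 difference of -0.0093, against -0.00081 over all genes. Of these, 2 were at an unadjusted p under 0.05 on the higher side and 4 on the lower side, and 0 were called. The list median was -0.011 under DCS and 0.0046 under vehicle. The libraries are of bulk tissue, in which fewer cells of a type and less RNA per cell cannot be told apart.

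**Figure D1:**
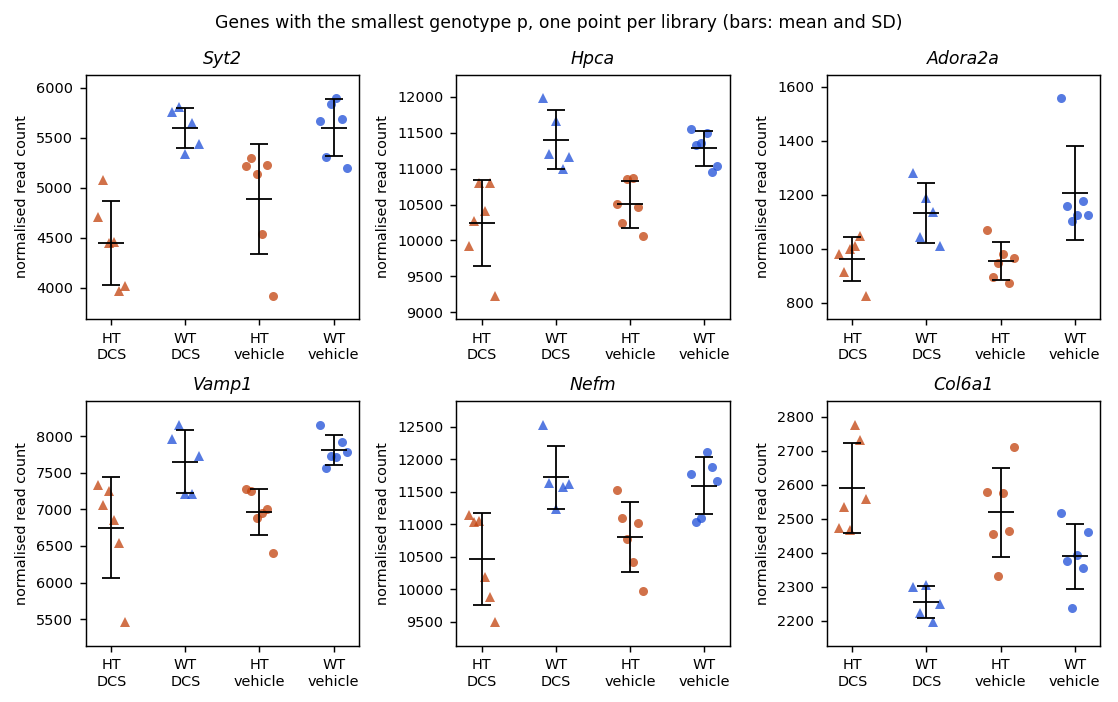
Normalised read counts of Syt2, Hpca, Adora2a, Vamp1, Nefm and Col6a1, with 1 point per library in HT DCS, WT DCS, HT vehicle and WT vehicle and bars at the mean and SD; the vertical axes do not start at 0. For the 5 genes with lower HT means, most HT points sit under the WT points of the same treatment, and for Col6a1 most sit above them.

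Hpca, which encodes hippocalcin, a neuronal calcium sensor that moves to the membrane when calcium rises, was the only gene whose 12 HT and 11 WT libraries did not overlap with HT lower (1 of 17256 genes, 0.00580%), and 0 genes (0%) did so with HT higher. Its lowest, median and highest counts were 9232, 10440.5 and 10870.3 in HT, against 10954, 11323 and 11979 in WT. The gap between the groups was narrow, from 10870.3 in the highest HT library to 10954 in the lowest WT library. The log2 difference was -0.13 ± 0.02 (SE), or -0.16 under DCS and -0.10 under vehicle (limma, adjusted p = 0.0965).

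Other calcium-dependent genes fell on either side. Cpne5, a copine that binds membranes in a calcium-dependent way, had 1902 ± 59.7 in HT libraries and 2061 ± 114 in WT libraries (limma, log2 difference -0.12 ± 0.03 (SE), adjusted p = 0.364), with all 12 HT libraries under the WT mean. Nsmf, which encodes a protein that carries NMDA receptor signals from the synapse to the nucleus, was on the other side, with 15799 ± 749.7 in HT libraries and 14860.0 ± 494 in WT libraries and a log2 difference of 0.09 ± 0.02 (SE) (limma, adjusted p = 0.364). Its ranges, 14306 to 16943 in HT and 13867 to 15633 in WT, overlapped between 14306 and 15633.

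In the list for CaMKII and calcineurin signalling, which carries the calcium signal of NMDA receptors, 6 of 18 measured genes had a higher and 12 a lower mean in HT, with a median log2 difference of -0.012. Of these 0 were called and 3 were at an unadjusted p under 0.05, all lower in HT, where 3.91% of all genes were. The list median was 0.0036 under DCS, where 8 of 18 were lower, and -0.039 under vehicle, where 16 were. Nos1, the neuronal nitric oxide synthase that is tethered near NMDA receptors, had 3397 in HT libraries and 3709.8 in WT libraries, a log2 difference of -0.13 (limma, adjusted p = 0.408). Its lowest HT value, 2855, was HT vehicle replicate 6. Ppp3ca, the catalytic subunit of calcineurin, and Rcan1, a calcineurin regulator, had log2 differences of -0.05 and -0.06 (limma, adjusted p = 0.687 and 0.693).

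The promoters of Syt2, Hpca and Vamp1 are shown because these are the leading release and calcium-sensor genes, with lower HT means under both treatments. Each is a RefSeq window of 300 bases on GRCm38.p6, read 5′ to 3′ on the gene's strand. The table holds 2 windows for Syt2, 3 for Hpca and 1 for Vamp1, and the one nearest the start of a principal GENCODE transcript was taken (chr1:134709050-134709349 plus strand for Syt2, chr4:129121698-129121997 minus strand for Hpca, chr6:125215331-125215630 plus strand for Vamp1). Capitals mark GGGCGG, the GC box bound by Sp family factors, searched on both strands:
Syt2: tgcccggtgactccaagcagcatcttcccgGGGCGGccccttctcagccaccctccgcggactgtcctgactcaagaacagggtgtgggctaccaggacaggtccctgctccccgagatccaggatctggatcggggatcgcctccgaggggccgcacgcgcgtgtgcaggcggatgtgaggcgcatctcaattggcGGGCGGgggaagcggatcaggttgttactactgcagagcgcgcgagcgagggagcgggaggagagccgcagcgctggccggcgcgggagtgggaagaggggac
Hpca: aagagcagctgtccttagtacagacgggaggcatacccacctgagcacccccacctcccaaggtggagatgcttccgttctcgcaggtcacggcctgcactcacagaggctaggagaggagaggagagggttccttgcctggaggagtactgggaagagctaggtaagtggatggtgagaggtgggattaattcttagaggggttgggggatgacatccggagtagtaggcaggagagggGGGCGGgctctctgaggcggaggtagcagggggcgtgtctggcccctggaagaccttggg
Vamp1: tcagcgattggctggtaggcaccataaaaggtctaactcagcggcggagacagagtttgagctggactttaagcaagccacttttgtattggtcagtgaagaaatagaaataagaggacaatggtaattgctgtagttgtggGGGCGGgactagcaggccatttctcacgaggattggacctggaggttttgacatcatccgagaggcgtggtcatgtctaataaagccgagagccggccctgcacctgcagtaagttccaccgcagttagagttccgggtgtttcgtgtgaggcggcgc
The GC box occurred 2 times in the Syt2 window, 1 time in that of Hpca and 1 time in that of Vamp1, and 35.7% of the 32851 promoter windows in the table held it. The core TGACG of the cyclic AMP response element, the E-box CACGTG and the TATA box TATAAA had 0 matches in each of the 3 windows, against 20.8%, 7.15% and 13.6% of all windows. A match is a description of the letters and not a bound site.

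Fast-spiking neurons, such as parvalbumin interneurons and many brainstem neurons, rely on neurofilaments for thick axons and on a set of potassium and sodium channel subunits for rapid repolarisation. Of 16 measured genes in that list, 1 had a higher and 15 a lower mean in HT, with a median log2 difference of -0.08, against -0.00081 over all genes. Of these 0 were called, and 8 were at an unadjusted p under 0.05, all lower in HT, where 3.91% of all genes were. Nefm, a neurofilament subunit, had lowest, median and highest counts of 9495, 10897 and 11526 in HT, against 11032, 11640.2 and 12533 in WT. All 12 HT libraries lay under the WT mean, and the ranges overlapped between 11032 and 11526. Its log2 difference was -0.13 ± 0.03 (SE) (limma, adjusted p = 0.305).

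Scn4b, the sodium channel subunit linked to resurgent current, had counts of 3173 to 4866 in HT and 4437 to 5942 in WT, with HT DCS replicate 6 the lowest. Its log2 difference was -0.25 ± 0.06 (SE) (limma, adjusted p = 0.364, or 0.0349 with replicate numbers 1 to 3 against 4 to 6 as a covariate). Kcnab1, a potassium channel accessory subunit, had 2888 ± 132 in HT libraries and 3102 ± 108 in WT libraries (limma, log2 difference -0.10, adjusted p = 0.364). Pvalb, the calcium buffer parvalbumin, overlapped widely, at 1913 to 2622 in HT and 2352 to 2819.8 in WT (limma, log2 difference -0.09, adjusted p = 0.74).

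Levels of Hox genes moved with several of these genes. Hox genes of the paralog groups listed are expressed in the hindbrain and spinal cord and hardly at all in the forebrain. Of 14 listed, 9 were measured at a mean of at least 10, 3 had no row in the table and 2 lay under that mean. All 9 had lower means in HT, with a median log2 difference of -0.78. Of these, 4 were at an unadjusted p under 0.05, where 3.91% of all genes were lower at that level, and 0 were called. The median was -0.33 without HT DCS replicates 5 and 6. Their summed level ran from 34.4 to 281 in HT (median 180.1) and from 144 to 328 in WT (median 253). Hoxa5 was at 0 in HT DCS replicate 6 and Hoxb2 at 0 in HT DCS replicate 5. The estimated depth of HT DCS replicate 5, 25.65 M reads, was the lowest of all libraries, and that of HT DCS replicate 6 was 34.5 M. Hoxb3 had lowest, median and highest counts of 5.87, 25.0 and 39.5 in HT, against 20.7, 46.3 and 63.7 in WT, a log2 difference of -0.78 ± 0.25 (SE) (limma, adjusted p = 0.604). The mean of the 9 genes on the log2 scale was 2.03 and 2.19 in HT DCS replicates 5 and 6, 3.21 to 4.83 in the other 10 HT libraries, and 3.91 to 5.03 in the 11 WT libraries.

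Within groups, the deviation of a library from its group mean was compared with the deviation of its Hox mean, for the 20 genes with the smallest p in the 2 directions and over all 23 libraries. Where r is given without 2 libraries, these were dropped after the group means were taken. The means were not taken again, so that r still depends on the 2 libraries. Vamp1 varied with the Hox mean (Pearson r = 0.75, permutation p = 0.00057, adjusted over the 20 relations 0.0074; Spearman rho = 0.82, p = 0.00014, adjusted 0.0028), and r was 0.74 without HT DCS replicates 5 and 6, the 2 libraries farthest from the median. Nefm gave r = 0.75 (permutation p = 0.00076, adjusted 0.0074; rho = 0.69, p = 0.0017, adjusted 0.017; r = 0.66 without those 2). Syt2 gave r = 0.71 (permutation p = 0.0011, adjusted 0.0074; rho = 0.63, p = 0.0077, adjusted 0.051; r = 0.63 without those 2). Hpca (r = 0.064, permutation p = 0.87, adjusted 0.97; rho = -0.13, p = 0.63, adjusted 0.96; r = -0.098 without those 2) and Adora2a (r = 0.022, permutation p = 0.92, adjusted 0.97; rho = -0.036, p = 0.88, adjusted 0.99; r = -0.056) showed no such relation. Of the other 15 relations none passed 0.05 after adjustment by either measure, and Abi1 came closest (r = -0.60, permutation p = 0.014, adjusted 0.068; rho = -0.58, p = 0.014, adjusted 0.07; r = -0.56).

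The pooled differences of these genes were also taken without those libraries. With HT DCS replicates 5 and 6 left out, the log2 difference was -0.23 for Syt2, -0.14 for Vamp1, -0.11 for Nefm and -0.21 for Scn4b, and with the Hox mean as a covariate it was -0.19, -0.11, -0.08 and -0.20 in the same order. For Hpca it was -0.12 without those libraries and -0.13 with the covariate, and for Adora2a -0.28 in both fits. The median of the fast-firing list was -0.05 without the 2 libraries and -0.04 with the covariate.

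**Figure D2:**
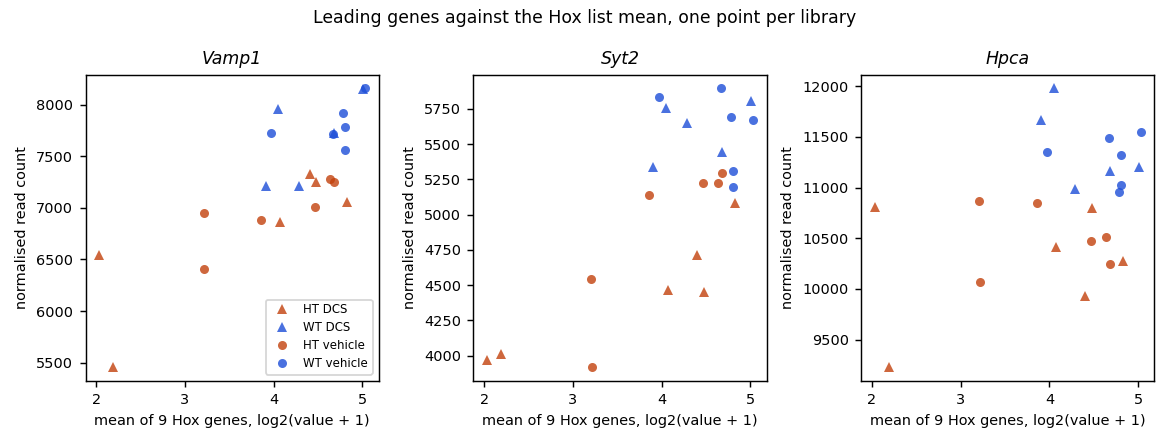
Normalised read counts of Vamp1, Syt2 and Hpca against the mean of the 9 Hox genes on the log2(value + 1) scale, with 1 point per library and HT in orange and WT in blue, triangles for DCS and circles for vehicle. HT DCS replicates 5 and 6 lie at the far left with Hox means of 2.03 and 2.19; the HT points slope upward for Vamp1 and Syt2. The genotypes share the range from 3.91 to 4.83, where HT lies under WT for Hpca, and no WT library lies below it.

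Genes of striatal projection neurons, the GABAergic output cells of the striatum that express dopamine and adenosine receptors, also had lower means in HT. Of 16 measured, 2 were higher and 14 lower, with a median log2 difference of -0.09, or -0.04 under DCS and -0.10 under vehicle. Of these 0 were called, and 9 were at an unadjusted p under 0.05, all lower in HT, where 3.91% of all genes were. The median was -0.09 without HT DCS replicates 5 and 6 and -0.11 with the Hox mean as a covariate.

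Adora2a, the adenosine receptor of striatopallidal neurons, had lowest, median and highest counts of 827, 973 and 1069 in HT, against 1009, 1136 and 1557 in WT. The highest WT value was replicate 1 of WT vehicle, which lay far above the next. All 12 HT libraries were under the WT mean, and the log2 difference was -0.28 ± 0.05 (SE), or -0.23 under DCS and -0.33 under vehicle (limma, adjusted p = 0.103). Rasd2, a small GTPase enriched in the striatum, had 2371 ± 147 in HT libraries and 2614 ± 166 in WT libraries (limma, log2 difference -0.14, adjusted p = 0.364).

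Inhibitory neuron markers were divided. Of 18 measured genes, 6 had a higher and 12 a lower mean in HT, with a median log2 difference of -0.016, 2 at an unadjusted p under 0.05 (both lower) and 0 called. Slc32a1, the vesicular GABA transporter used by every GABAergic cell, had 4737 ± 177 in HT libraries and 5045 ± 181 in WT libraries, and all 12 HT libraries lay under the WT mean (limma, log2 difference -0.09 ± 0.02 (SE), adjusted p = 0.364). The list median was -0.00043 without HT DCS replicates 5 and 6 and -0.00081 without replicate 6 alone. Calb2, calretinin, had a log2 difference of -0.07 (limma, adjusted p = 0.648). Cerebellar granule and Purkinje markers were lower in 13 of 17, with a median of -0.035, 2 at an unadjusted p under 0.05 (both lower) and 0 called. Gabra6, the GABA-A subunit of granule cells, had 2303 in HT libraries and 2502 in WT libraries (limma, log2 difference -0.12, adjusted p = 0.652). Pcp4, a calmodulin-binding protein of Purkinje cells, had a log2 difference of -0.07 (limma, adjusted p = 0.687). The cerebellar median was -0.077 under DCS and -0.0096 under vehicle, and -0.013 without HT DCS replicates 5 and 6 and 0.0023 with the Hox covariate.

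The remaining lower genes with the smallest p belong to no list used here. Rnaseh2a, the catalytic subunit of the enzyme that removes ribonucleotides from DNA, had 461 ± 48.2 in HT libraries and 539.7 ± 40.8 in WT libraries (log2 difference -0.23). Usp16, a histone H2A deubiquitinase, had 976 ± 76.7 in HT libraries and 1124 ± 118 in WT libraries (log2 difference -0.19), and Hikeshi, a nuclear import carrier for the chaperone Hsp70, had 649 ± 68.8 in HT libraries and 756 ± 64.1 in WT libraries (log2 difference -0.23). For these 3 genes limma gave an adjusted p of 0.364 and all 12 HT libraries lay under the WT mean of the same treatment. The ranges of the genotypes overlapped. HT DCS replicate 2 for Rnaseh2a (551.8) and HT DCS replicate 6 for Hikeshi (767) lay above the pooled WT means given here. Mrvi1, which links the inositol trisphosphate receptor to cyclic GMP signalling, had the largest log2 difference of the 10 lower genes, -0.37 ± 0.09 (SE), at lowest, median and highest counts of 81.0, 98.2 and 132 in HT and 106, 128 and 169 in WT (limma, adjusted p = 0.364). Cyp2s1, a cytochrome P450 gene, had 177 ± 15.2 in HT libraries and 206 ± 17.6 in WT libraries (limma, log2 difference -0.22, adjusted p = 0.364).

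Among genes with higher means in HT, several encode extracellular matrix or vascular proteins. Col6a1, a chain of collagen VI, had the smallest p. Its lowest, median and highest counts were 2333, 2546 and 2777 in HT, against 2196, 2305 and 2515 in WT. Of the HT libraries, 11 of 12 lay above the WT mean of the same treatment. The log2 difference was 0.13 ± 0.03 (SE) (limma, adjusted p = 0.298). It was 0.20 under DCS and 0.08 under vehicle (limma, interaction adjusted p = 0.984).

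Ltbp4, which holds latent TGF-beta in the matrix, had 2864 ± 197 in HT libraries and 2563 ± 204 in WT libraries, and Loxl2, which cross-links collagen, had 111 ± 12.2 in HT libraries and 92.7 ± 7.36 in WT libraries. Their log2 differences were 0.16 ± 0.04 (SE) and 0.25 ± 0.07 (SE) (limma, adjusted p = 0.376 and 0.408), with 11 and 12 of 12 HT libraries above the WT mean of the same treatment. Lrp5, a Wnt co-receptor that acts in brain endothelium among other cells, had 363 ± 16.2 in HT libraries and 323 ± 29.7 in WT libraries (limma, log2 difference 0.17 ± 0.04 (SE), adjusted p = 0.364). Slco1c1, a thyroid hormone transporter of the blood-brain barrier, had counts of 1617 to 1926 in HT and 1472 to 1703 in WT, all 12 HT libraries above the WT mean, and log2 differences of 0.13 under DCS and 0.12 under vehicle (limma, pooled adjusted p = 0.364).

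Endothelial markers were higher in 17 of 18 measured genes, with a median log2 difference of 0.06, 4 at an unadjusted p under 0.05 (all higher, where 3.22% of all genes were) and 0 called. The VEGF receptors Flt1 (1473 in HT and 1343 in WT) and Kdr (1002 in HT and 887 in WT) had log2 differences of 0.13 and 0.17, and the angiopoietin receptor Tek had 0.11 (limma, adjusted p = 0.419, 0.608 and 0.648). Of 15 mural genes (pericytes and smooth muscle), 11 had higher means in HT, with a median of 0.12, 6 at an unadjusted p under 0.05 (all higher) and 0 called. Myh11, the smooth muscle myosin, had 217 ± 25.9 in HT libraries and 187 ± 21.8 in WT libraries, and Notch3, a receptor of mural cells, had 807 ± 89.7 in HT libraries and 710.3 ± 77.0 in WT libraries (limma, log2 differences 0.21 and 0.18, adjusted p = 0.604 and 0.608). Pdgfrb, the growth factor receptor that marks pericytes, had a log2 difference of 0.13 (limma, adjusted p = 0.669). The summed level of the mural list was 8143 to 10284 in HT and 7991 to 10096 in WT, so the groups overlapped. Meningeal fibroblast markers were higher in 12 of 15 (median 0.04, 1 at an unadjusted p under 0.05) and collagens in 11 of 14 (median 0.044, 2 higher and 1 lower at an unadjusted p under 0.05), with 0 called in either list. Both medians were negative under DCS. The meningeal median was -0.020 under DCS, where 11 of 15 were lower, 0.11 under vehicle, and 0.0056 without WT vehicle replicate 3. The collagen median was -0.0086 under DCS, where 8 of 14 were lower, 0.063 under vehicle, and 0.015 without HT DCS replicate 6.

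The other higher genes have varied roles. Agbl5, which trims glutamate side chains from tubulin, had 573 ± 65.0 in HT libraries and 492 ± 52.1 in WT libraries (limma, log2 difference 0.22 ± 0.06 (SE), adjusted p = 0.364). Abi1, an adaptor of the actin-regulating WAVE complex, had counts of 2899.6 to 3709 in HT and 2757 to 3239.7 in WT, with a log2 difference of 0.22 under DCS and 0.06 under vehicle. Limma gave a pooled adjusted p of 0.364 and an interaction adjusted p of 0.984. Arhgap29, a GTPase-activating protein, and Rhobtb3, an atypical member of a small GTPase family, had log2 differences of 0.20 and 0.10 (limma, adjusted p = 0.408 and 0.408).

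Myelin genes, the products of mature oligodendrocytes, had lower means in HT throughout. All 24 measured members were lower, with a median log2 difference of -0.14 and single-gene values from -0.30 to -0.04. Of these, 13 were at an unadjusted p under 0.05, where 3.91% of all genes were lower at that level, and 0 were called. Mbp, for myelin basic protein, had lowest, median and highest counts of 155531, 215264 and 238590.1 in HT, against 210849, 235809.6 and 246782 in WT. Its log2 difference was -0.15 ± 0.05 (SE) (limma, adjusted p = 0.608), with 11 of 12 HT libraries under the WT mean of the same treatment. Cnp, an enzyme of uncompacted myelin, had 19471 to 27219.5 in HT and 24975 to 27401 in WT (limma, log2 difference -0.13, adjusted p = 0.608). Tspan2, a tetraspanin of oligodendrocytes, had -0.09 and all 12 HT libraries under the WT mean (limma, adjusted p = 0.608).

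The myelin difference was uneven across libraries. In each group the list mean on the log2 scale was higher in every replicate from 1 to 3 than in every later one. It was 11.79 to 11.98 against 11.34 to 11.64 in HT DCS, and 11.92 to 11.98 against 11.59 to 11.85 in HT vehicle. In WT DCS, where only replicates 4 and 5 were later, it was 11.98 to 12.08 against 11.73 to 11.84. In WT vehicle it was 11.94 to 12.03 against 11.82 to 11.93. The labels do not say what the numbers stand for. The list median was -0.20 under DCS, where all 24 members were lower, and -0.09 under vehicle, where 23 were. The summed level ran from 357075 to 553816 in HT and from 484553 to 575422 in WT, and HT DCS replicate 6 was the lowest. The median was -0.08 without HT DCS replicates 5 and 6 and -0.06 with the Hox mean as a covariate. Precursor-stage genes did not share the direction: 8 of 16 were higher and 8 lower, with a median of 0.0053. Of these, 3 higher and 4 lower genes were at an unadjusted p under 0.05, against 3.22% and 3.91% of all genes, and 0 were called. Pdgfra, the receptor of oligodendrocyte precursors, had 2430.5 ± 131 in HT libraries and 2247 ± 132 in WT libraries (log2 difference 0.11), whereas Bcas1, a marker of newly myelinating cells, had 5903 ± 309 in HT libraries and 6295 ± 204 in WT libraries (log2 difference -0.09) and Olig1, a lineage transcription factor, had a log2 difference of -0.08 (limma, adjusted p = 0.478, 0.454 and 0.539).

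**Figure D3:**
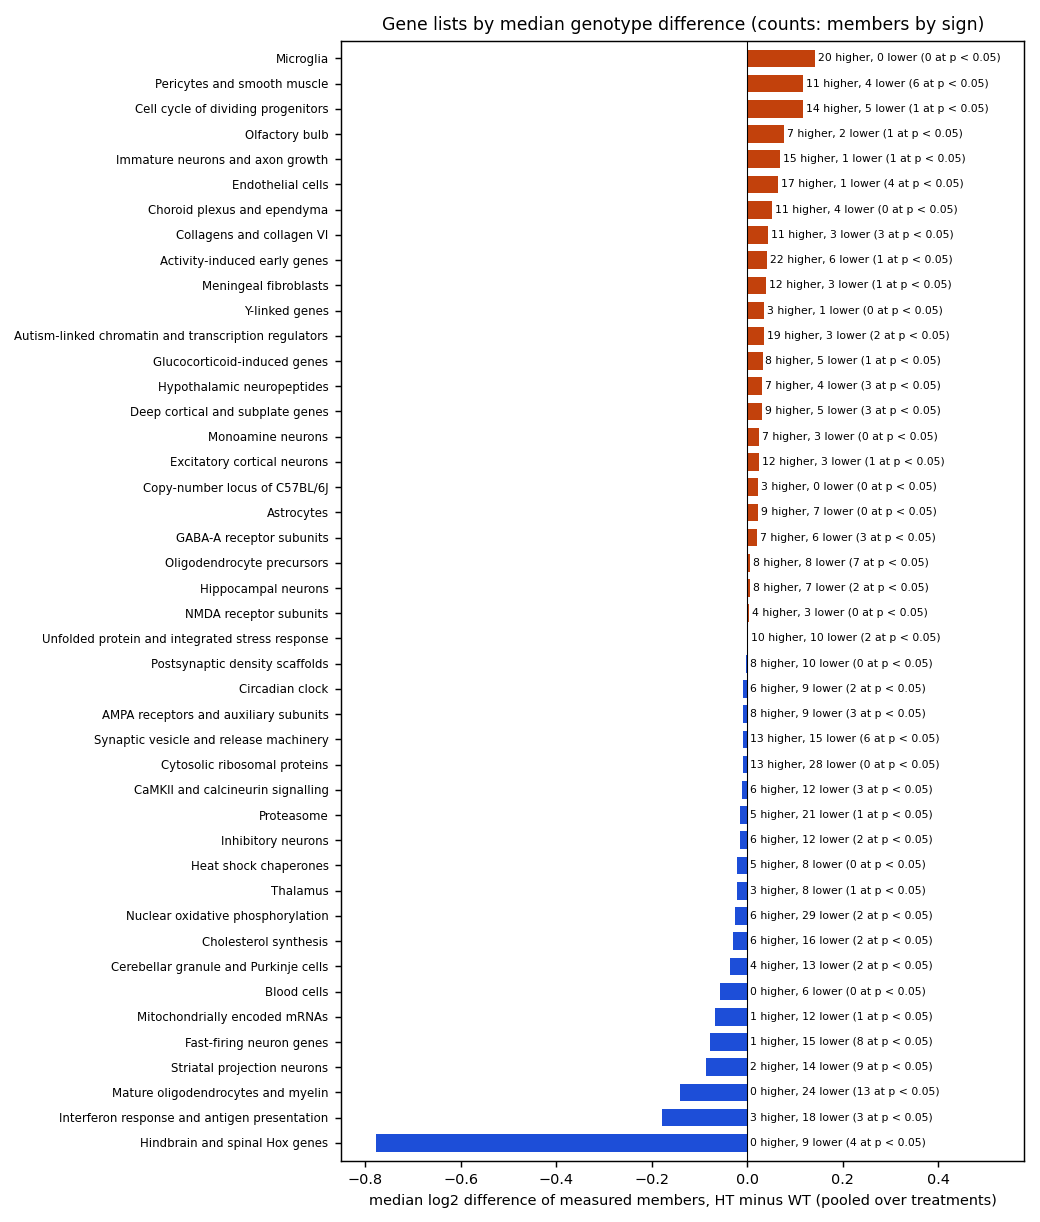
Median log2 difference, HT minus WT pooled over treatments, of the measured members of 44 gene lists, with the number of members higher and lower in HT and the number at an unadjusted p under 0.05 beside each bar; orange bars are positive and blue bars negative. The Hox list stands at -0.78 (-0.33 without HT DCS replicates 5 and 6), interferon genes at -0.18, myelin at -0.14 and microglia at 0.14, while most lists lie within 0.10 of 0.

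Microglial markers were higher in HT in all 20 of 20 measured genes, with a median log2 difference of 0.14, yet 0 were at an unadjusted p under 0.05 and 0 were called. P2ry12, the ADP receptor of resting microglia, had lowest, median and highest counts of 362, 521 and 686 in HT, against 338, 407 and 668 in WT. The groups overlapped almost entirely, and the log2 difference was 0.23 ± 0.14 (SE) (limma, adjusted p = 0.778). P2ry13, a related receptor, and Cx3cr1, the fractalkine receptor, had log2 differences of 0.23 and 0.21 (limma, adjusted p = 0.797 and 0.829). The median was 0.24 without replicates 2 of WT DCS and WT vehicle, the WT libraries with the highest microglial means, and 0.09 without HT DCS replicates 5 and 6. The summed level was 6231 to 9820 in HT and 5530 to 10459 in WT.

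Interferon-response and antigen presentation genes were lower in HT in 18 of 21 measured genes, with a median log2 difference of -0.18. Of these, 3 were at an unadjusted p under 0.05 (all lower, where 3.91% of all genes were) and 0 were called. Ifit1 and Isg15, classical interferon-induced genes, had low counts of 13.2 to 43.8 and 6.88 to 34.5 in HT, against 24.8 to 75.2 and 18.4 to 48.7 in WT. Their log2 differences were -0.47 ± 0.18 (SE) and -0.43 ± 0.19 (SE) (limma, adjusted p = 0.648 and 0.684). Leaving out WT vehicle replicate 1 moved the list median to -0.12, and leaving out WT vehicle replicate 4 moved it to -0.24.

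Genes of immature neurons and axon growth were higher in 15 of 16, with a median of 0.07, 1 at an unadjusted p under 0.05 and 0 called. Nnat, neuronatin, an imprinted gene of differentiating neurons, had 5917 ± 488 in HT libraries and 5474 ± 266 in WT libraries (limma, log2 difference 0.11, adjusted p = 0.608). Cd24a and Tubb2b, a surface glycoprotein and a tubulin of young neurons, had log2 differences of 0.12 and 0.08 (limma, adjusted p = 0.77 and 0.776). The list median was 0.026 without replicates 2 of WT DCS and WT vehicle and 0.028 with the Hox mean as a covariate.

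Chromatin and transcription regulators linked to autism were higher in 19 of 22, by a median of 0.034, 2 at an unadjusted p under 0.05 (both higher) and 0 called. Tcf4, a basic helix-loop-helix factor, had 9476 ± 553 in HT libraries and 8964 ± 473 in WT libraries, and Kdm6b, a histone demethylase, had 2314 ± 146 in HT libraries and 2189 ± 133 in WT libraries (limma, log2 differences 0.08 and 0.08, adjusted p = 0.669 and 0.687). The list median was 0.019 without replicates 2 of WT DCS and WT vehicle. Tbr1, a transcription factor of deep-layer cortical neurons, had a log2 difference of 0.04 (limma, adjusted p = 0.778).

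The genotype difference was also taken within each treatment, in comparisons that share no library. Limma called 0 of 17256 genes (0%) under DCS and 0 (0%) under vehicle at an adjusted p of 0.05. At an unadjusted p under 0.05 there were 1302 under DCS (7.55%; 3.42% higher and 4.13% lower in HT) and 729 under vehicle (4.22%; 2.19% higher and 2.03% lower). The log2 differences of the 2 treatments had the same sign for 53.3% of genes, and their Pearson correlation was 0.028 across the 17256 genes, which are not independent of each other. An unadjusted p under 0.05 in the same direction under both treatments was reached by 58 genes (0.336%), 36 lower (0.209%) and 22 higher (0.127%) in HT, and in opposite directions by 17 (0.0985%). The 58 made up 4.45% of the DCS genes and 7.96% of the vehicle genes at that level. Ranked by the larger of the 2 p-values, the leading 8 were Vamp1, Hpca, Syt2, Adora2a, Cpne5, Usp16 and Cyp2s1, lower in HT, and Slco1c1, higher.

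The test of the difference between treatments, the interaction, called 0 of 17256 genes (0%; limma, smallest adjusted p = 0.984), with 756 (4.38%; 2.31% more positive under DCS and 2.07% more negative) at an unadjusted p under 0.05. Its median standard error was 0.099 on the log2 scale, larger than that of the pooled difference. The effect of Syt2 was -0.34 under DCS and -0.20 under vehicle (limma, interaction adjusted p = 0.984). Ehd1, a recycling-endosome ATPase chosen after its values were seen, was among the 17 genes that went opposite ways, with log2 differences of -0.20 under DCS and 0.18 under vehicle and a pooled difference of -0.0052.

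**Figure D4:**
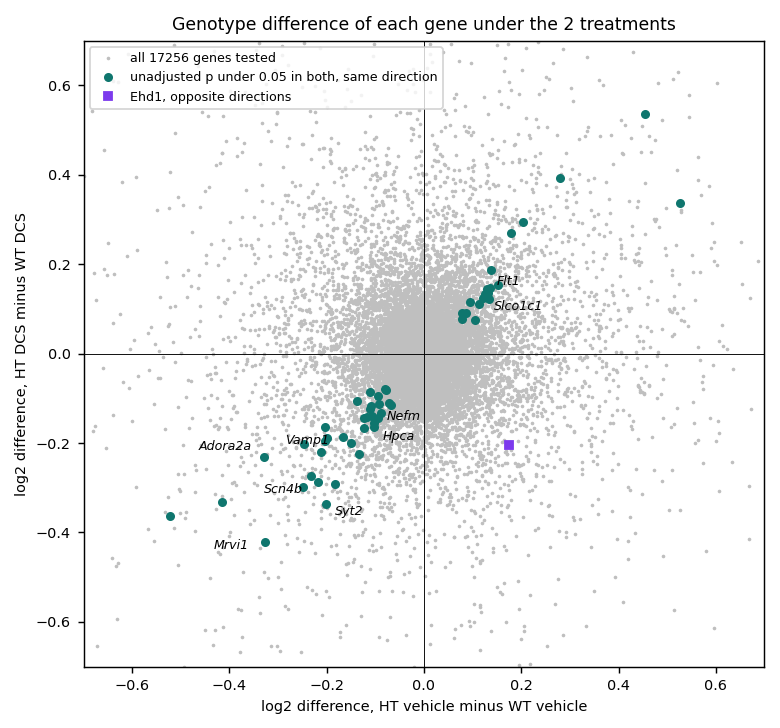
Log2 difference of each of 17256 genes between HT and WT under DCS (vertical) and under vehicle (horizontal); grey points are all genes, green points the 58 genes at an unadjusted p under 0.05 in the same direction under both treatments, and the purple square Ehd1. The grey cloud has no slope to speak of (r = 0.028), and 218 genes lie outside the plotted range.

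NMDA receptor subunit transcripts showed no genotype difference beyond the spread between libraries. Of 7 genes, 4 had a higher and 3 a lower mean in HT, the median log2 difference was 0.0036, and 0 were at an unadjusted p under 0.05. Grin2b itself had lowest, median and highest counts of 14618, 19021 and 20959 in HT, against 15207, 18057 and 21725 in WT, so the ranges overlapped almost entirely. Its log2 difference was 0.02 ± 0.06 (SE), with a 95% interval of -0.10 to 0.15 (limma, adjusted p = 0.963). The lowest HT value was HT vehicle replicate 6, where the other 5 libraries of the group lay between 18075 and 19880.

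Grin1, which every NMDA receptor needs, had 20739 ± 837 in HT libraries and 20912 ± 739 in WT libraries, a log2 difference of -0.012 with a 95% interval of -0.06 to 0.04 (limma, adjusted p = 0.939). Grin2a, the GluN2 subunit whose share grows as the brain matures, had 5776 ± 494 in HT libraries and 5719.9 ± 221 in WT libraries, with an interval of -0.07 to 0.09. The intervals were -0.09 to 0.06 for Grin2c, the subunit typical of cerebellar granule cells, and -0.08 to 0.08 for Grin2d, an early and interneuron subunit. The glycine-binding subunits Grin3a and Grin3b had log2 differences of 0.02 and -0.11, and Grin3b was read at only 28.2 in HT and 29.6 in WT. For these 5 genes limma gave adjusted p-values between 0.924 and 0.990, and the sign of most subunit differences changed with the libraries used.

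Genes around the edited locus were taken by coordinates alone. Of 116 tested genes within 10 Mb of Grin2b on chromosome 6, 49 had a higher and 67 a lower mean in HT, with a median log2 difference of -0.014. At an unadjusted p under 0.05 there were 5 higher and 5 lower, 8.62% of the window against 7.13% of all genes, and 0 were called. In a window of 20 Mb the share was 4.94% of 263 genes, and over chromosome 6 it was 6.39% of 877. Slco1c1 lay 5.35 Mb from Grin2b on the higher-coordinate side, and Vamp1 lay 10.5 Mb away on the other side, just outside the smaller window. Ldhb, a lactate dehydrogenase subunit, and Smco3 had log2 differences of -0.07 and -0.18 (limma, adjusted p = 0.641 and 0.645).

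**Figure D5:**
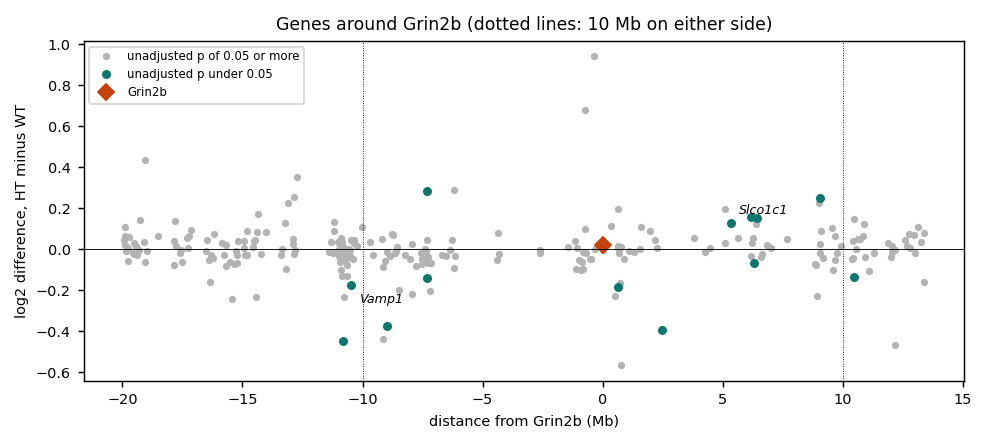
Log2 difference, HT minus WT, of each tested gene within 20 Mb of Grin2b against its distance from Grin2b in Mb; green points are at an unadjusted p under 0.05 and the orange diamond is Grin2b. Green points lie on both sides of 0 and at scattered distances, and Grin2b is at 0.02.

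Lists for other cell types and pathways were counted in the same way. Excitatory cortical neuron markers were higher in 12 of 15 (median 0.024), astrocyte markers in 9 of 16 (median 0.022), and hippocampal markers in 8 of 15 (median 0.0052). At an unadjusted p under 0.05 there were 1, 0 and 2 genes in that order, and limma called 0. The excitatory gene was higher in HT, and the 2 hippocampal genes, Hpca among them, were lower. The hippocampal median was -0.024 under DCS and -0.0034 under vehicle, and the astrocyte median was 0.0034 under DCS and 0.042 under vehicle. Dividing progenitor genes were higher in 14 of 19, with a median of 0.12, 1 at an unadjusted p under 0.05. Activity-induced early genes were higher in 22 of 28 (median 0.042), with a median between -0.0025 and 0.08 when single libraries were left out. The direction differed by treatment: 20 of 28 were lower under DCS (median -0.047), and 26 of 28 were higher under vehicle (median 0.10), a difference that was not tested. On the lower side, 12 of 13 mitochondrially encoded mRNAs (median -0.07), 29 of 35 nuclear oxidative phosphorylation genes (median -0.026), 21 of 26 proteasome genes (median -0.016) and 16 of 22 cholesterol synthesis genes (median -0.03) had lower means in HT. Of these 4 lists, 1, 2, 1 and 2 genes in that order were at an unadjusted p under 0.05, and limma called 0 in any of them. Without HT DCS replicates 5 and 6 the medians in the same order were -0.037, -0.0068, -0.0095 and -0.026, and without HT DCS replicate 5 alone the nuclear oxidative phosphorylation median was -0.012. The mitochondrial median was -0.016 under DCS and -0.11 under vehicle.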

How the data were processed

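Libraries of polyadenylated brain RNA keep strand, per the labels' protocols. The table is a signal per gene and library: normalised read counts with decimals, scaled by the authors before they were deposited. GRCm38, DESeq2 1.26.0, Salmon 1.1.0 and R 3.6.2 are listed, with no roles, in the submitters' processing notes. Such scaling makes library totals alike, so a change in total RNA cannot be seen. Low values cluster at multiples of 1 step per library, but only 60.1% to 78.8% of those up to 5 steps came within 0.15 of a multiple, so whole reads were not recovered, no count test was run and no counting interval is given. Genes of near-identical families, such as tubulins, may exchange reads.

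Genes whose mean reached 10 were fitted on log2(value + 1) with limma 3.58.1 in R 4.3.3, with treatment and genotype as terms, a mean trend, robust empirical Bayes and Benjamini-Hochberg adjustment over 17256 genes, two-sided, called at 0.05. This scale understates changes of low genes. Within-treatment differences and the interaction came from a model with 1 coefficient per group. Correlations used 100000 permutations of libraries within groups. Coordinates are from GENCODE M21. The 44 gene lists, the named genes and the tests were chosen with earlier results of these data known. The genes named are NMDA receptor subunits, those with the 10 smallest p in each direction, up to 3 genes per list described and the 8 leading genes shared by both treatments, without predicted gene models; 2 genes that the rule would name are not reported here. Lists were counted and given no set test. Alternatives changed the pseudocount, filter, model, normalisation, libraries and replicate block. Leaving out named libraries together and the Hox covariate were added after the data were seen. The fits were tested on simulated data.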

Additional observations from a re-analysis of the deposited data

Results flagged for a closer look

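The values below were set apart by the gap between a library and the nearest other library of its group, divided by the range of the group. For the 68 named genes 272 groups of values were examined in this way, and 22 values of 19 genes stood out. The critical value used is nominally passed by chance in about 1 in 20 groups.

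HT vehicle replicate 6 gave 7 of them. It was the lowest of its group for Grin2b (14618 against 18075 to 19880 in the other 5 libraries), Grin2a (4614 against 5806 to 6300), Scn4b (3758 against 4395 to 4631), Nos1 (2855 against 3466 to 3773), Tspan2 (8788 against 9411 to 9709) and Tcf4 (8396 against 9302 to 9758), and the highest for Nnat (6722 against 5461 to 5889). Without it the log2 difference between HT and WT was -0.23 for Scn4b and -0.10 for Nos1.

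WT DCS replicate 2 was the highest of its group for P2ry12 (667.9 against 338 to 407), P2ry13 (192 against 97.0 to 108) and Tek (452 against 401 to 412), and the lowest for Ltbp4 (2157 against 2564 to 2720) and Grin2a (5519 against 5855 to 5907). WT DCS replicate 1 was the highest for Slc32a1 (5511), Cplx1 (23052) and Pcp4 (9384), and WT vehicle replicate 1 for the striatal gene Adora2a (1557 against 1104 to 1178) and for Hoxd3 (67.2). The remaining values were the highest of their groups: Loxl2 (103.7) and Tubb2b (9257) in WT DCS replicate 4, Tcf4 (9608) in WT vehicle replicate 5, Pcp4 (8695) in WT vehicle replicate 2 and Grin3b (44.8) in WT DCS replicate 3.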

How the results depend on the processing

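The number of genes called lower in HT was 0 in the fit reported, 2 after quantile normalisation (Syt2 and Hpca) and 4 with replicate numbers 1 to 3 against 4 to 6 as a covariate (Syt2, Hpca, Scn4b and Cdc42ep2). A replicate block gave 5 with the numbers of the titles (Syt2, Hpca, Adora2a, Vamp1 and Scn4b) and 7 with those of the descriptions (the same 5, Rph3a and Cdc42ep2). By the numbers of the titles, same-numbered libraries of different groups correlated at -0.068 to 0.30 (median 0.015), with 5 of 33 pairs over 0.1. Of 23 libraries, 7 correlated best with their own number. Differently numbered pairs were not summarised, so these values do not decide whether the numbers mark related libraries. The myelin and fast-firing list means were higher in every replicate from 1 to 3 than in every later one of the same group. Genes called higher in HT stayed at 0 under all alternatives run.

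The 1230 genes at an unadjusted p under 0.05 became 812 in the vehicle libraries alone and 772 with the Hox mean as a covariate, and ranged from 971 to 1545 with single libraries left out. The count called lower stayed at 0 with single libraries left out, and so did the counts called higher, under vehicle and for the interaction. The count called under DCS ranged from 0 to 1, with 1 without HT vehicle replicate 6.

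Of the 68 named genes that went through the alternatives, those that changed sign were NMDA subunits. Grin1 was 0.0017 after quantile normalisation and 0.0074 in DCS libraries. Grin2a was -0.012 in DCS libraries, -0.00047 with the description block, -0.0031 without HT DCS replicates 5 and 6 and -0.00027 without both WT replicates 2. In those last 2 settings Grin2b was -7.7e-05 and -0.027, and Grin2c 0.0056 and 0.0018; Grin2c was 0.035 in vehicle libraries and 0.012 with the Hox covariate. Grin2d was -0.011 in vehicle libraries, -0.015 with array weights, -0.0053 and -8.5e-05 with the title and description blocks, -0.0028 with the 1 to 3 against 4 to 6 covariate, -0.011 and -0.030 in the same 2 settings and -0.024 with the Hox covariate. Grin3a was -0.0011 in vehicle libraries and -0.011 without both WT replicates 2, and Grin3b 0.045 with the Hox covariate. With single libraries left out, Grin2a ran from -0.0051 to 0.040, Grin2b from -0.011 to 0.053, Grin2c from -0.028 to 0.00027 and Grin2d from -0.015 to 0.023. The cause of these changes was not tested. Over 41 alternatives (40 for Ifit1, Isg15, Hoxa4, Hoxb3 and Hoxd3, whose means lie under 50) the others of the 68 kept their direction. Ehd1, Scml2 and Tmed9, named for opposite differences under the treatments, are not among them. List medians that changed sign under some alternative included the activity-induced (0.042, and -0.047 in DCS libraries), meningeal (0.04 and -0.020), collagen (0.044 and -0.0086) and cerebellar list (-0.035, and 0.0023 with the Hox covariate). The Hox list has no member at a mean of at least 50, so that filter gave no value for it.

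With 12 and 11 libraries the median standard error was 0.049 on the log2 scale, above the median absolute difference of 0.039. Low genes such as Grin3b and the Hox genes had wider errors. No depth correction was run.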

Other observations

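Beyond the leading 8, the 58 genes at an unadjusted p under 0.05 in the same direction under both treatments included the following, named here after their values were seen. None was called by limma in the pooled fit or within a treatment. On the lower side, the fatty acid elongases Elovl1 and Elovl7 had pooled log2 differences of -0.18 and -0.13. Lgi3, a secreted ligand of the LGI family, had -0.12, and Galnt6, a glycosyltransferase, had -0.27. Of the 22 genes on the higher side, Ptprb, an endothelial phosphatase, had 0.14, Apcdd1, a Wnt inhibitor of brain endothelium, had 0.14, and Slc7a5, a large neutral amino acid transporter of the blood-brain barrier, had 0.13. Under DCS and vehicle separately, Apcdd1 had 0.15 and 0.13 (limma, pooled adjusted p = 0.419) and Elovl1 had -0.22 and -0.13 (limma, pooled adjusted p = 0.364).

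Genes at an unadjusted p under 0.05 in opposite directions under the treatments included Scml2, a polycomb protein, at -0.93 under DCS and 0.93 under vehicle, and Tmed9, a cargo receptor of the early secretory pathway, at -0.099 and 0.098. Their pooled log2 differences were 0.042 and 0.0041, and limma gave an interaction adjusted p of 0.984 for each.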
